A study of Mus musculus with 8 samples.

Results

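Synaptic adhesion molecules are described here by 43 genes, chosen by name from families whose proteins join the presynaptic to the postsynaptic membrane. They are neurexins, LAR-type phosphatases, neuroligins, LRRTMs, calsyntenins, cerebellins, SLITRKs, latrophilins, teneurins, FLRTs, SynCAMs, NCAMs, contactin-1 and its partners. All 43 were found by symbol among the 39017 genes of the count table, and all 43 passed the filter on low counts, which left 17654 genes to test. The lowest count of any of them in a library was 15.

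The counts come from translating ribosome affinity purification (TRAP) of mouse hippocampus, in which ribosomes carrying the protein L10 fused to EGFP are pulled down with the RNA bound to them. All mice, per the study's design text, were CCK cre+ and L10-EGFP+, so that Cre driven from the Cck gene sets which cells are tagged. The 3 wild-type libraries (WT) came from littermates without SMARCA3 fl/fl, and the 5 conditional knockout libraries (cKO) came from SMARCA3 fl/fl mice. SMARCA3, encoded by Hltf, is a DNA translocase related to the SWI/SNF remodellers. One library is a pool of 4 hippocampi, and the age and sex of the mice are not given in the sources used here. Cre from Cck can also act in pyramidal cells that express or once expressed Cck, so the tagged cells need not be interneurons alone. The glutamatergic markers Slc17a7, Camk2a, Neurod2 and Neurod6 summed to 7186 to 7648 CPM in WT, against 107 to 147 CPM for the GABAergic markers Gad1, Gad2 and Slc32a1.

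Levels are given in CPM, counts scaled to a common library total, adjusted between libraries by the trimmed mean (TMM), and differences as log2 fold changes of cKO over WT from edgeR. Nothing states that the pools are separate litters or preparations, so p-values measure the spread between these 8 pools. A bulk pull-down cannot tell fewer cells of a type from less RNA per cell. Total counts ran from 31760155 to 61823651 per library. The target gene Hltf was at 8.39 to 13.7 CPM in WT and 2.83 to 5.10 CPM in cKO 1 to 4, but at 11.4 CPM in the library labelled cKO 5, which goes against its label. Cck was at 415 to 631 CPM in WT and 571 to 837 CPM in cKO, and the ribosomal protein gene Rpl10a at 173 to 202 and 180.4 to 201 CPM. Values of the cKO libraries are printed in the order of their numbers, so that the fifth is always the library labelled cKO 5, and the main counts are also given without it.

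Synaptic adhesion proteins work in pairs across the cleft. Neurexins and the LAR-type receptor phosphatases sit mainly on the axon terminal and each bind several partners on the dendrite. Neuroligins, LRRTMs and calsyntenins bind neurexins, cerebellins are secreted linkers between neurexins and glutamate delta receptors, and SLITRKs and IL1RAPL1 bind the phosphatases. Latrophilins form complexes with teneurins and FLRTs. SynCAMs (Cadm genes) and NCAMs bind within their own families through immunoglobulin domains, and contactin-1 with Caspr (Cntnap1) builds the axonal junction beside the node of Ranvier. In the hippocampus these proteins help to decide which synapses form and which receptors they hold.

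The LAR phosphatases Ptprs, Ptprd and Ptprf show at sequence level a property on which paralogs differ and which is compared with the fold changes below, their GC content. The lines give the coding strand of the same 120 bases of the first phosphatase domain in each gene, read from GENCODE vM21 (mm10), each inside 1 exon on the minus strand. They lie at chr17:56417391-56417510 for Ptprs, chr4:75957261-75957380 for Ptprd and chr4:118212129-118212248 for Ptprf. Capitals mark the 42 positions at which the 3 genes are not all alike.
Ptprs: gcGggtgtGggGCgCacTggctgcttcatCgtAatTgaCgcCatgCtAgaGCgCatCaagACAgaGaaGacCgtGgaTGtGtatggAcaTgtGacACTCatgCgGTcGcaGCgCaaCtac
Ptprd: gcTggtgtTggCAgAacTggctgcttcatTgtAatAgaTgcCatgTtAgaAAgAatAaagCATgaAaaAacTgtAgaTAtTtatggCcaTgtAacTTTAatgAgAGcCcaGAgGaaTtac
Ptprf: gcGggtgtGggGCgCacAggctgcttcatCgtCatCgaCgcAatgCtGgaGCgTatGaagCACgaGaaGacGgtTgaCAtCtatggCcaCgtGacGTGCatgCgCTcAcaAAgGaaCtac
Of the 42 positions, 31 are the last base of a codon. Of the 40 last bases, 29 are G or C in Ptprs, 13 in Ptprd and 32 in Ptprf. The stretch of Ptprs is identical to that of Ptprd at 71.7% of bases and to that of Ptprf at 79.2%. Over the whole longest transcript the GC content was 60.3% for Ptprs, 43.8% for Ptprd and 58.1% for Ptprf.

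Per length, the most abundant member in WT was Clstn1, calsyntenin-1, a transmembrane protein that also links cargo to kinesin, at 56.2 ± 2.35 CPM per kilobase of exon (SD, n = 3). Slitrk3 (42.6 ± 2.19), Cadm2 (42.4 ± 4.36) and Cntn1 (41.2 ± 2.78 CPM per kilobase) followed and did not differ from each other beyond their SD. Cadm3 (37.0 ± 1.42) and Adgrl1, latrophilin-1 (35.4 ± 1.30 CPM per kilobase), came next. At the other end stood Cbln2 (0.821 ± 0.222), Ptprf (1.25 ± 0.205) and Cadm4 (1.53 ± 0.612 CPM per kilobase). The lengths are the union of all annotated exons, so a gene with many unused exons is understated.

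**Figure D1:**
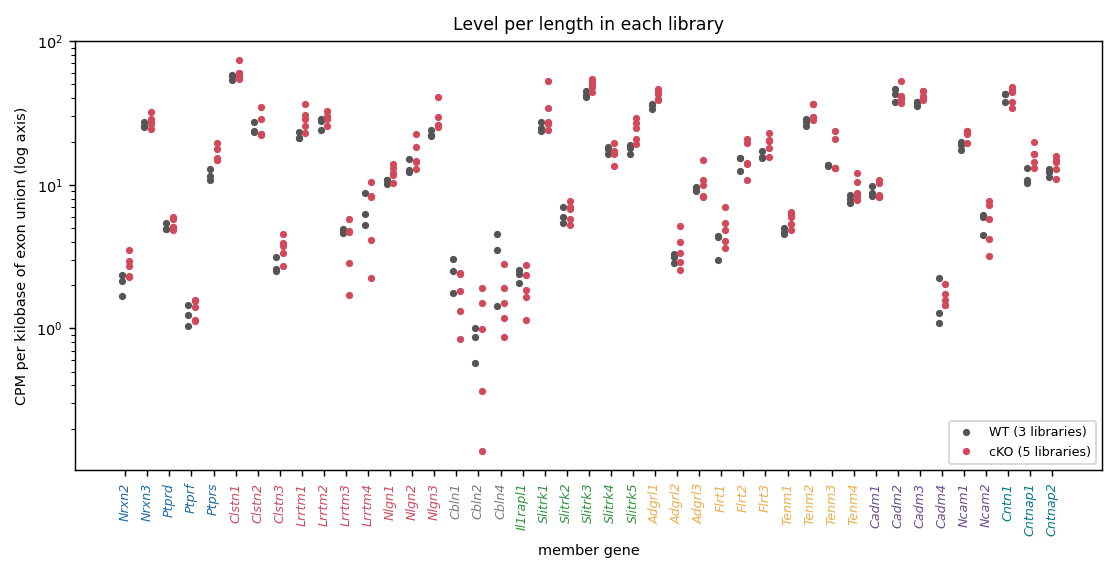
Level of each member per kilobase of exon union (vertical, log axis, CPM per kilobase) in the 3 WT and 5 cKO libraries (points), with names coloured by family. Clstn1 is highest in WT at 56.2 and Cbln2 lowest at 0.821 CPM per kilobase, and for most genes the WT and cKO points overlap.

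Families differed in how evenly the RNA per length was spread over paralogs. Nrxn3 made up 92.7 ± 1.42% of the sum of Nrxn2 and Nrxn3 in WT, with a level of 322, 319 and 346 CPM in WT 1, 2 and 3. Adgrl1 was 74.0 ± 1.11% of the latrophilins and Ncam1 77.1 ± 3.44% of the NCAMs. Among neuroligins, Nlgn3 held 48.8 ± 2.62%, Nlgn2, the form of inhibitory synapses, 28.6 ± 2.52%, and Nlgn1, the form of excitatory synapses, 22.6 ± 1.21%. Tenm2 held 50.7 ± 0.876% of the teneurins, and Cadm2 and Cadm3 together led the SynCAMs at 47.1 ± 3.44% and 41.2 ± 1.72% (SD, n = 3 for all shares). These shares compare genes of different length and GC content and are a description of the WT pull-downs.

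Between the groups, no member passed at an adjusted p under 0.05 by edgeR, and neither did any other gene (0.00% called). DESeq2 gave 41 members an adjusted p and called 1 of them higher (0.678% of all its genes) and 0 lower (0.422%). limma-voom called 0 members (0.0170% of all genes called higher). By edgeR, at an unadjusted p under 0.05, 11 of 43 members (25.6%) were higher in cKO, where 5.02% of all genes tested were. Likewise 1 member, Cbln4, was lower (2.33%, against 3.70% of all genes). In 6 members every cKO library lay above every WT library (14.0%, against 3.38% of all genes tested), and in 0 every cKO library lay below (3.82% of all genes). Among genes with a mean of at least 10 CPM, where 39 members fall, 28.2% of the members and 6.60% of the 9151 genes reached that p and were higher, and in 6 of the members (15.4%, against 4.11%) the cKO libraries all lay above. Of those 9151 genes 51.1% had a fold change above 0. The median log2 fold change was 0.20 over the members, with 36 of 43 above 0, and 0.02 over all genes tested, with 53.0% above 0. The libraries were uneven in this. The median over the members of log2 CPM minus the WT mean was 0.20, 0.16, 0.01, 0.29 and 0.30 in the cKO libraries. In cKO 3, 22 of 43 members lay above the WT mean. Members were chosen with earlier results of these data known, so these counts are a description and not a test of the list. The 4 glutamatergic markers summed to 7725 to 11638 CPM in cKO, above all WT libraries, with 2 of the 4 higher at an unadjusted p under 0.05, the other two below 0 in log2 fold change, and none at 0 counts. The general neuronal markers Snap25, Syt1, Rbfox3, Map2 and Stmn2 summed to 19539 to 23995 CPM in WT and 16616 to 21979 CPM in cKO, with 4 of 5 below 0. The 3 GABAergic markers summed to 112 to 142 CPM in cKO 1 to 3, to 77.8 CPM in cKO 4 and to 72.9 CPM in the library labelled cKO 5. The part of these markers in the members' levels was not tested.

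**Figure D2:**
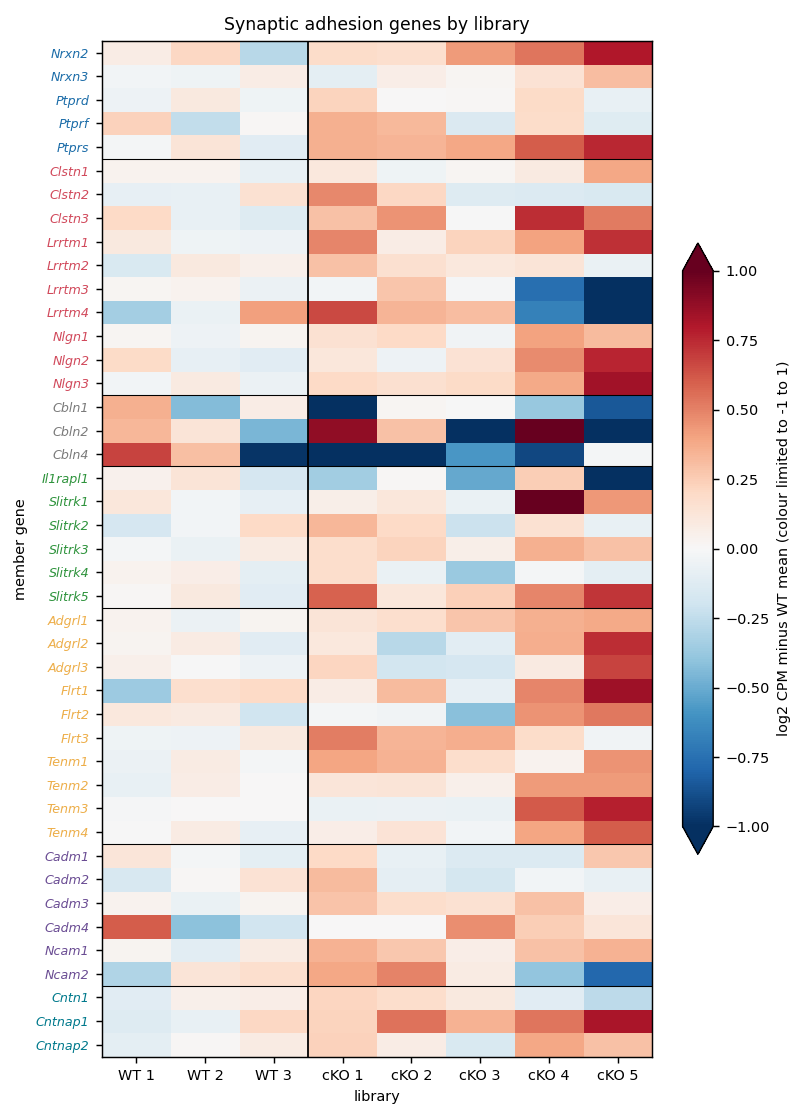
Log2 CPM minus the WT mean (colour, red above and blue below, limited to -1 and 1) for the 43 members (rows, in family blocks) in the 8 libraries (columns, with a line between WT and cKO). Ptprs and Cntnap1 are red across cKO, while Lrrtm3, Lrrtm4 and Ncam2 are blue in cKO 4 and the library labelled cKO 5.

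Ptprs, protein tyrosine phosphatase sigma, a presynaptic receptor for SLITRKs and heparan sulfate (ENSMUSG00000013236, mm10 chromosome 17, 56412426 to 56476483), had the smallest p of the members. It was at 173, 192 and 162 CPM in WT 1, 2 and 3 and at 225, 222, 229, 266 and 295 CPM in the cKO libraries. Every cKO value exceeded every WT value. On the log2 scale the difference was 0.49 (SE 0.12), or 1.41-fold, and the adjusted p was 0.480 by edgeR and 0.0313 by DESeq2. The exact permutation p was 0.0179, the smallest that 56 splits can give. The alternatives gave adjusted p-values from 0.0313 to 0.951. Its log2 fold change was 0.42 without the library labelled cKO 5 and 0.35 over the 6 libraries without that library and cKO 4.

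The other phosphatases stood closer to WT. Ptprd, the other main form at hippocampal synapses, was at 111, 124 and 112 CPM in WT and at 135, 116, 117, 132 and 110 CPM in cKO, and the groups overlapped. edgeR put its log2 fold change at 0.07 (SE 0.10). Ptprf was at 9.54 to 13.3 CPM in WT and 10.2 to 14.4 CPM in cKO, with a log2 fold change of 0.13 (SE 0.20). Per length, Ptprs made up 63.7 to 66.4% of the 3 phosphatases in WT and 66.7 to 76.8% in cKO. These ranges did not overlap, though WT 2 at 66.4% and cKO 1 at 66.7% were close. The share uses the same Ptprs values as above, so it is not a separate result. The GC content of Ptprs (60.3%), Ptprd (43.8%) and Ptprf (58.1%) also differs. The difference in response between the paralogs was not tested.

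Of the neurexins, Nrxn2 was at 29.5, 32.5 and 23.1 CPM in WT and at 31.9, 31.5, 37.7, 40.7 and 48.9 CPM in cKO, with cKO 1 and 2 inside the WT range. edgeR gave Nrxn2 a log2 difference of 0.43 (SE 0.18, unadjusted p 0.0363, adjusted p 0.558), and its GC content of 62.4% is the highest of the members. Nrxn3 in cKO was at 307, 344, 333, 362 and 406 CPM, and its log2 fold change was 0.09 (SE 0.10), or 0.03 without the library labelled cKO 5.

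Of the 10 postsynaptic neurexin partners, 2 were higher at an unadjusted p under 0.05 (5.02% of all genes) and 8 lay above 0 (53.0% of all genes). Nlgn3, the neuroligin found at both excitatory and inhibitory synapses (ENSMUSG00000031302), was at 207, 224 and 202 CPM in WT and at 242, 235, 241, 274 and 377 CPM in cKO, with no overlap. edgeR gave Nlgn3 a log2 difference of 0.38 (SE 0.15, adjusted p 0.543), and it was 0.23 without the library labelled cKO 5, the highest of all. Nlgn3 shares 41.2% of its exon bases with Gm21986, an overlapping transcript on the same strand counted at a mean of 134 CPM, so how reads were split between them is uncertain. Lrrtm1, an LRR protein that binds neurexin at excitatory synapses, was at 70.8, 64.1 and 63.9 CPM in WT and at 92.6, 69.6, 77.4, 87.3 and 110 CPM in cKO, where only cKO 2 fell inside the WT range. edgeR gave Lrrtm1 a log2 difference of 0.40 (SE 0.15, adjusted p 0.511).

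The neuroligins of 1 synapse type, Nlgn2 and Nlgn1, lay higher on average, at an unadjusted edgeR p of 0.106 and 0.0748. Like Nlgn3, neither passed after adjustment. Nlgn2 was at 71.3 to 87.6 CPM in WT and 74.2 to 130 CPM in cKO, with a log2 fold change of 0.31 (SE 0.18). That value was 0.17 without the library labelled cKO 5, 0.06 with cKO 4 left out as well, and 0.03 after the GC and length correction. For Nlgn1 the ranges were 137 to 145 and 138 to 188 CPM, with a log2 fold change of 0.21 (SE 0.11). The calsyntenins Clstn1, Clstn2 and Clstn3 had log2 fold changes of 0.12, 0.07 and 0.41. Clstn1, the most abundant, was at 268, 269 and 250 CPM in WT and at 282, 254, 265, 279 and 343 CPM in cKO, so that the groups overlapped, and its log2 fold change was 0.04 without the last of these.

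The secreted cerebellins were the scarcest family, at 0.407 to 13.3 CPM. Cbln4, which joins presynaptic receptors to their postsynaptic partners (ENSMUSG00000067578, mm10 chromosome 2, 172036233 to 172043466), measured 13.3, 10.2 and 4.18 CPM in WT and at 2.53, 3.40, 5.52, 4.38 and 8.18 CPM in cKO. WT 3 lay inside the cKO range, and 2 of 5 cKO libraries lay below all WT libraries. edgeR gave Cbln4 a log2 difference of -0.94 (SE 0.42, adjusted p 0.565), and the exact permutation p was 0.161. Without the library labelled cKO 5 it was -1.22, and without WT 1, the highest library, it was -0.59. Cbln1 was at 5.34 to 9.25 CPM in WT and 2.57 to 7.32 CPM in cKO, and Cbln2 at 1.67 to 2.92 and 0.407 to 5.53 CPM.

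The promoters of the members at the extremes are shown because Ptprs had the smallest p and Cbln4 the lowest fold change. Each line gives the 250 bases before the RefSeq start (GRCm38.p6, minus strand), at chr17:56476481-56476730 for Ptprs and chr2:172043467-172043716 for Cbln4. Capitals mark GGGCGG, the GC box, on either strand, with overlapping matches joined.
Ptprs: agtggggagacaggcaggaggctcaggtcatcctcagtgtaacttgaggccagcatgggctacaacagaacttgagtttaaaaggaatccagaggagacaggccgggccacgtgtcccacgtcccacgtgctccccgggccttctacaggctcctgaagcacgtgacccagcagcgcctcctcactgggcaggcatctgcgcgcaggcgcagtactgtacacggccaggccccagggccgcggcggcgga
Cbln4: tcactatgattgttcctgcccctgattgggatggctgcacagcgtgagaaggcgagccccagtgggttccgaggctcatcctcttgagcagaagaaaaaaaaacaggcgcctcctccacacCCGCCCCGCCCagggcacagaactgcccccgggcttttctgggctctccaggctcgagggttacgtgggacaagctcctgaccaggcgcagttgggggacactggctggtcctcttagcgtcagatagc
Cbln4 holds 2 matches and Ptprs 0. The table of promoters matched 32 of the 43 members, of which 12 (37.5%) held the motif, against 32.7% of all 32851 promoters of that length. Each member is counted by 1 promoter, the nearest to its GENCODE start, while the 32851 hold every entry. For Tenm1, Tenm2, Tenm3, Nrxn3 and Adgrl2 that promoter lay 35920 to 291723 bases from the GENCODE start. The median log2 fold change was 0.14 over the 12 and 0.21 over the other 20. These are matches of letters and not sites.

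Among the postsynaptic partners of the LAR phosphatases, 2 of 6, Slitrk5 and Slitrk3, were higher at an unadjusted p under 0.05 (5.02% of all genes). Slitrk5, which binds phosphatases and modulates the BDNF receptor TrkB (ENSMUSG00000033214), was at 94.3, 100.1 and 86.6 CPM in WT and at 141, 101, 110.1, 131 and 154 CPM in cKO. The groups did not overlap, although cKO 2 stood just above WT 2. edgeR gave Slitrk5 a log2 difference of 0.44 (SE 0.14, adjusted p 0.499). Slitrk3, the selective organiser of inhibitory synapses, was at 204, 197 and 218 CPM in WT and at 233, 241, 215, 264 and 253 CPM in cKO, where cKO 3 lay inside the WT range. edgeR gave Slitrk3 a log2 difference of 0.22 (SE 0.09, adjusted p 0.553). Slitrk2 (0.09), Slitrk4 (-0.07) and Il1rapl1 (-0.26), the X-linked interleukin-1 receptor family member, had SE of 0.15, 0.12 and 0.25.

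All 10 genes of the latrophilin, teneurin and FLRT group had log2 fold changes above 0, from 0.14 to 0.34 (53.0% of all genes lay above 0), and 2 of them had an unadjusted p under 0.05 (5.02% of all genes were higher at that p). With cKO 4 and the library labelled cKO 5 left out, 6 of the 10 lay above 0 (50.5% of all genes), and 9 did after the GC and length correction (53.2%). Adgrl1, an adhesion G protein-coupled receptor that binds teneurin-2 and FLRT3 (ENSMUSG00000013033), was at 312, 291 and 309 CPM in WT and at 333, 342, 368, 388 and 396 CPM in cKO, with no overlap. edgeR gave Adgrl1 a log2 difference of 0.26 (SE 0.09, adjusted p 0.499), but it was -0.0018 after a correction for GC content and transcript length. Adgrl1 shares 12.9% of its exon bases with Gm10644 on the other strand. Tenm1 was at 80.2, 88.4 and 82.7 CPM in WT and at 110.2, 107, 94.8, 85.9 and 114 CPM in cKO, where only cKO 4 fell inside the WT range. edgeR gave Tenm1 a log2 difference of 0.29 (SE 0.12, adjusted p 0.541).

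Flrt3, the latrophilin ligand of excitatory synapses, just missed an unadjusted p of 0.05 in all 8 libraries, at 0.0516. It was at 75.5, 75.2 and 83.3 CPM in WT and at 111, 98.6, 100.2, 88.3 and 75.9 CPM in cKO. Only the library labelled cKO 5 overlapped WT. Leaving that library out gave log2 0.35 (unadjusted p by edgeR 0.00851), and the 6 libraries without cKO 4 as well gave log2 0.40 (unadjusted p 0.00257, adjusted p 0.341). The libraries left out are the lowest in cKO for Flrt3, so a larger difference without them was foreseeable. Flrt3 was named after its values were seen, and these p-values are a description.

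Of the 6 SynCAM and NCAM genes, Ncam1 and Cadm3 were higher at an unadjusted p under 0.05 (5.02% of all genes). Ncam1, the neural cell adhesion molecule that carries polysialic acid, was at 164, 151 and 171 CPM in WT and at 206, 195, 170 (169.6), 198 and 206 CPM in cKO, where cKO 3 fell just inside the WT range. edgeR gave Ncam1 a log2 difference of 0.27 (SE 0.10, adjusted p 0.511). Cadm3 was at 275, 256 and 274 CPM in WT and at 326, 303, 299, 328 and 281 CPM in cKO, without overlap. edgeR gave Cadm3 a log2 difference of 0.20 (SE 0.09, adjusted p 0.562). Cadm3 shares 4.98% of its exon bases with Ackr1 on the same strand, counted at a mean of 48.8 CPM. Cadm2, the most abundant SynCAM, was at 372, 419 and 457 CPM in WT and at 518, 389, 367, 407 and 394 CPM in cKO, with a log2 fold change of -0.0045 (SE 0.12). Cadm1, Cadm4 and Ncam2 had log2 fold changes of 0.03, 0.11 and 0.02.

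Cntnap1, the Caspr protein of the paranodal junction between axon and myelin (ENSMUSG00000017167, mm10 chromosome 11, 101170523 to 101190724), measured 60.6, 63.1 and 76.5 CPM in WT. In cKO it was at 77.4, 96.7, 84.6, 96.1 and 117 CPM. The groups did not overlap, although cKO 1 was close to WT 3. The log2 difference of 0.50 (SE 0.15, edgeR adjusted p 0.499) was the highest of the members, and the exact permutation p was 0.0357. The 7 oligodendrocyte markers Mbp, Mog, Mag, Mobp, Cnp, Ugt8a and Cldn11 summed to 62.7 to 64.7 CPM in WT and 71.2 to 92.5 CPM in cKO, with all 7 log2 fold changes above 0 and none at 0 counts in any library. Markers of oligodendrocyte precursors summed to 3.24 to 4.35 CPM in WT and 5.42 to 8.73 CPM in cKO, with 2 of the 6 at 0 counts in some library. The part of either in the Cntnap1 result was not tested. Its partner Cntn1 was at 358, 401 and 406 CPM in WT and at 451, 438, 415, 359 and 323 CPM in cKO, with a log2 fold change of 0.03 (SE 0.12). Cntnap2, which clusters potassium channels beside that junction, was at 0.18 (SE 0.13).

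**Figure D3:**
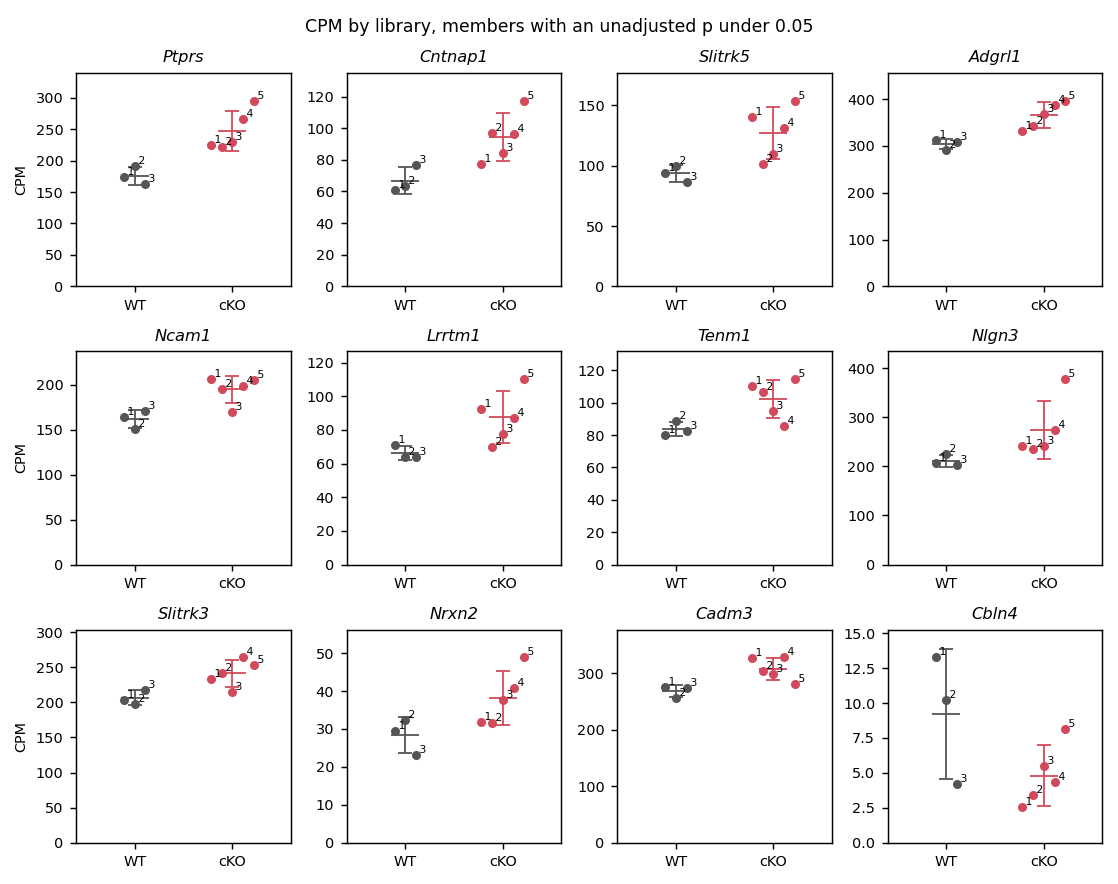
CPM (vertical, from 0) in each WT (grey) and cKO (red) library for the 12 members with an unadjusted p under 0.05, with library numbers beside the points and bars for the mean and SD. Ptprs, Cntnap1, Slitrk5, Adgrl1, Nlgn3 and Cadm3 show no overlap between the groups, and Cbln4 alone lies lower on average in cKO.

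Libraries differed in their levels of genes known as markers of dentate granule cells and of CA1 pyramidal cells, which were listed after the values had been seen. The dentate granule cell markers Prox1, Dsp, C1ql2, Rfx3 and Tdo2 summed to 174, 266 and 424 CPM in WT 1, 2 and 3 and to 388, 408, 334, 156 and 152 CPM in the cKO libraries. The CA1 pyramidal cell markers Wfs1, Fibcd1, Pou3f1, Mpped1 and Man1a summed to 761, 637 and 480 CPM in WT and to 567, 496, 584, 951 and 946 CPM in cKO. WT 1, cKO 4 and the library labelled cKO 5 were thus low in dentate and high in CA1 markers. Neither list had a gene at an unadjusted p under 0.05 between WT and cKO, and what these levels stem from was not tested.

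Several adhesion genes varied in the same libraries. In cKO 4 and the library labelled cKO 5, 17 of 43 members lay above the range of the other 6 libraries, as did 11.3% of all genes tested. Another 4 lay below it, as did 11.2% of all genes. Lrrtm4, an organiser known for its place at dentate granule cell synapses, was at 32.1, 38.7 and 54.0 CPM in WT and at 64.3, 51.5, 50.4, 25.4 and 13.9 CPM in cKO, low in the libraries that were low in dentate markers. Lrrtm4 shares 25.1% of its exon bases with Gm4409 on the other strand, counted at a mean of 28.6 CPM. Lrrtm3 was at 19.5 to 24.6 CPM in 6 libraries and at 12.03 and 7.20 CPM in cKO 4 and the library labelled cKO 5. WT 1, also low in dentate markers, was among the 6, at 20.6 CPM. Tenm3, a teneurin that matches CA1 axons with their targets, went the other way, at 134 to 141 CPM in 6 libraries and at 214 and 241 CPM in cKO 4 and the library labelled cKO 5. Slitrk1 was at 128 to 147 CPM in 6 libraries, at 284 CPM in cKO 4 and at 183 CPM in the library labelled cKO 5. WT 1, also high in CA1 markers, was among the 6 for both genes, at 139 CPM for Tenm3 and 147 CPM for Slitrk1. These genes were named after their values were seen.

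With the log2 ratio of CA1 to dentate marker counts in the model, chosen after seeing the data, all 11 members higher at an unadjusted p under 0.05 kept that side, and Flrt3, Nlgn2, Tenm2 and Clstn3 joined them. Of all genes tested, 5.42% were higher at that p in this fit. Ptprs was then at log2 0.46 (SE 0.09, edgeR adjusted p 0.158), and 0 members passed, against 0.0170% of all genes. In that fit 1 member was lower at an unadjusted p under 0.05 (4.86% of all genes) and 37 were above 0 (51.1%). Without the library labelled cKO 5, 8 of the 11 kept an unadjusted p under 0.05 (9 of 43 in all, against 4.47% of all genes), and Nrxn2, Slitrk3 and Tenm1 did not. Over the 6 libraries without cKO 4 as well, 6 of the 11 did, Ptprs, Cntnap1, Slitrk5, Ncam1, Tenm1 and Cadm3 (8 of 43 in all, against 4.45% of all genes). Cbln4 was the 1 member lower at that p in both sets (4.30% and 4.94% of all genes). Members above 0 numbered 36 and 33 (52.4% and 50.5% of all genes), with medians of 0.16 and 0.10, against 0.02 and 0.0034 over all genes. No member passed an adjusted p of 0.05 over the 6 libraries, where 0.0575% of all genes did.

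Across the 43 members the log2 fold change followed the GC content of the transcript, with a Spearman correlation of 0.525. The points share the same 8 libraries, and the correlation over all 17333 genes tested with a known GC content was 0.222. It was 0.381 among the members without the library labelled cKO 5 and 0.193 over the 6 libraries, while with the genomic span of the gene it was -0.225. The 18 members with a GC content of at least 50% had a median log2 fold change of 0.28, against 0.11 over the 8088 genes of that GC content. Of these members 7 (38.9%) were higher at an unadjusted p under 0.05, against 8.06% of such genes. The 25 members under 50% GC had a median of 0.12, against -0.03 over the 9245 such genes, and 4 were higher at that p, against 2.36%. The difference between GC classes was thus also present over all genes tested.

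**Figure D4:**
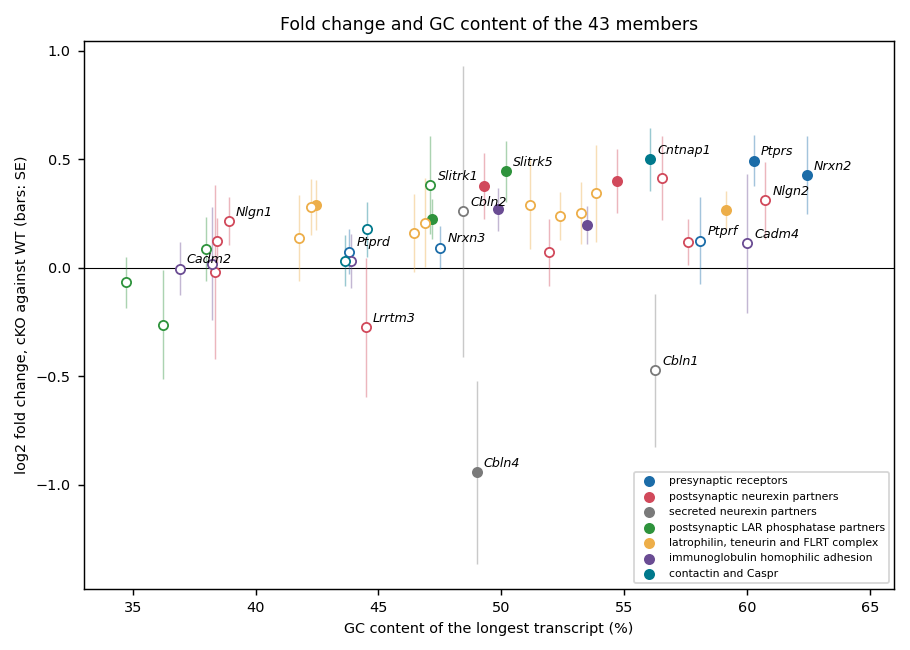
Log2 fold change of cKO over WT (vertical, bars for SE) against the GC content of the longest transcript (horizontal, %) for the 43 members, coloured by family and filled where the unadjusted p is under 0.05. Fold changes tend to be larger at higher GC content, with a Spearman correlation of 0.525, while Ptprf and Cbln1 at 58.1% and 56.3% GC lie apart from Ptprs at 60.3%.

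By library, the members of at least 50% GC lay at a median of 0.16, 0.15, 0.10, 0.41 and 0.56 above the WT mean in the cKO libraries on the log2 scale. Those under 50% GC lay at 0.21, 0.16, -0.03, 0.15 and -0.02. The wide gap between GC classes was thus found in cKO 4 and the library labelled cKO 5, and in cKO 1 and 2 both classes lay above WT. After the correction for GC content and transcript length, 8 of the 11 members kept an unadjusted p under 0.05 (9 of 43 in all, against 4.19% of all genes), and Nrxn2, Adgrl1 and Cadm3 did not. The correction moved Ptprs to a log2 fold change of 0.21 (unadjusted edgeR p 0.0321) and Nrxn2 to 0.10, while Slitrk5 was at 0.41 and Flrt3 at 0.34. No member was then lower at that p (3.52% of all genes) or passed an adjusted p of 0.05 (0.00566%), 32 were above 0 (53.2%), and their median was 0.10, against 0.02 over all genes.

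**Figure D5:**
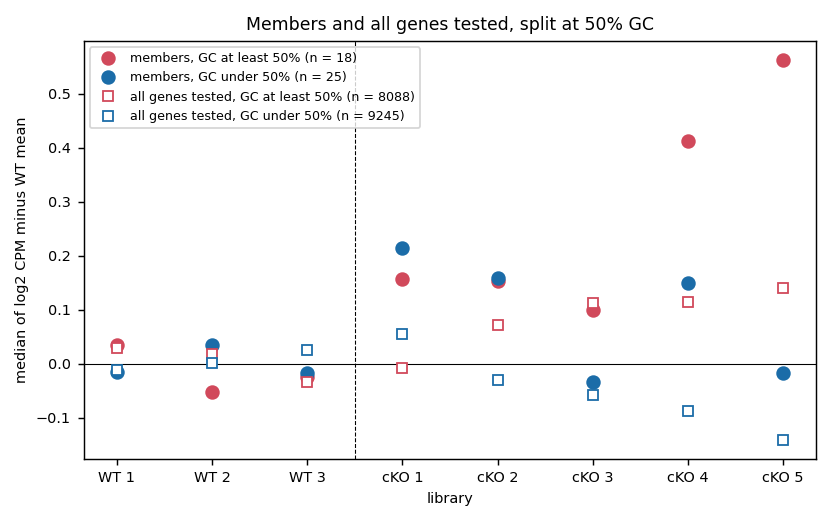
Median of log2 CPM minus the WT mean (vertical) in each library (horizontal) for members (filled circles) and all genes tested (open squares), split at a GC content of 50% (red at least, blue under). In the library labelled cKO 5 the members of higher GC lie at 0.56 and those of lower GC at -0.02, while in cKO 1 they lie at 0.16 and 0.21.

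Of 62 other synaptic adhesion genes listed, 59 were tested. edgeR called 0 of them after adjustment. With no adjustment, 10 had a p under 0.05 and were higher in cKO and 0 were lower (5.02% and 3.70% of all genes). Their median log2 difference was 0.12, with 43 above 0 (53.0% of all genes). Adgrb1 (BAI1), an adhesion receptor of the postsynaptic side, was at 65.8, 66.2 and 57.5 CPM in WT and at 78.4, 91.2, 96.6, 115 and 130 CPM in cKO. The groups did not overlap, and the log2 difference was 0.69 (SE 0.16). The adjusted p was 0.480 by edgeR and 0.0168 by DESeq2. L1cam, the axonal L1 adhesion molecule, was at 108 to 115 CPM in WT and 128 to 170 CPM in cKO, with a log2 fold change of 0.42 (SE 0.12). Nfasc, neurofascin, whose glial form binds the contactin and Caspr pair at the paranode, differed by log2 0.45 (SE 0.13), and Elfn2, a trans-synaptic partner of metabotropic glutamate receptors, 0.69 (SE 0.21). All 3 had an edgeR adjusted p of 0.499. The GC and length correction lowered Adgrb1, L1cam, Nfasc and Elfn2 to log2 0.37, 0.31, 0.27 and 0.42. Fitted on the 3 WT libraries and cKO 1 to 3 alone, these genes were at 0.49, 0.28, 0.30 and 0.46. The GC content of Adgrb1, 63.6%, is above that of every member.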

How the data were processed

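RNA from TRAP of mouse hippocampus was sequenced in 3 WT and 5 cKO libraries. The deposited table holds raw counts per Ensembl gene, made by the authors with STAR 2.5.3a and HTSeq on mm10, per the submitters' processing notes; the annotation release, strandedness and filters are not given in the sources used here. Symbols, positions, exon lengths and GC content (longest transcript) came from GENCODE vM21, which matched 96.4% of the 39017 genes, and promoters from RefSeq (GRCm38.p6). Of the 43 members, 17 share exon bases with another annotated gene, and reads there cannot be assigned from counts.

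Counts were tested in R 4.3.3 with edgeR 4.0.16 (TMM, filterByExpr by group, robust quasi-likelihood fit, two-sided), with Benjamini-Hochberg adjustment over 17654 genes and a threshold of 0.05, and the script was tested on simulated data. Alternatives used DESeq2 1.42.0, limma 3.58.1 (voom), other scalings and filters, left-out libraries and a correction for GC content and length. CPM uses TMM-scaled totals; exact permutation tests, two-sided, used log2(CPM + 0.5) over the 56 splits. The rule for genes given by library took members with an unadjusted p under 0.05 or no overlap (at most 20), the member highest per length in each family, paralogs pointing in opposite directions among the first set, Hltf, Cck, Rpl10a and the 4 other adhesion genes with the smallest p. Further members were named after their values were seen. The members and lists were chosen with earlier results of these data known. Figures used matplotlib 3.10.9. Group labels come from the sample titles. Marker lists are given without some of their genes, which are not reported here.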

Additional observations from a re-analysis of the deposited data

Results flagged for a closer look

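Of 48 genes in which the 5 cKO values were searched for 1 that stood apart (the members, Hltf and 4 other adhesion genes), 4 were picked out, where chance alone gives about 2.4. Each had a gap to its nearest neighbour of over 0.71 of the range of the cKO libraries. Nlgn3 was at 377 CPM in the library labelled cKO 5, against 235 to 274 CPM in the other cKO libraries. Nfasc was at 309 CPM there, against 207 to 235 CPM. Hltf was at 11.4 CPM there, against 2.83 to 5.10 CPM. Cadm2 was at 518 CPM in cKO 1, against 367 to 407 CPM in the others.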

How the results depend on the processing

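The covariate of CA1 to dentate markers was chosen after seeing the data; all other alternatives were listed earlier. Members higher at an unadjusted p under 0.05, 11 in all libraries, numbered 6 to 14 with 1 library left out, and those lower numbered 0 or 1. Of all genes, 5.02% were higher at that p in all libraries and 4.47% without the library labelled cKO 5. For the other left-out libraries that share is not given here, so those counts cannot be set against all genes. Without WT 1, WT 2 or WT 3 the higher members numbered 7, 6 and 6. Cbln4 was under that p in all 8 libraries and without WT 3 or the library labelled cKO 5. It was not under that p without WT 1, WT 2, cKO 1, cKO 2, cKO 3 or cKO 4. The median of the members, 0.20, ran from 0.15 to 0.26 with 1 library left out. DESeq2 called 1 member higher. After the GC content and transcript length correction the median was 0.0952 and 0 members were lower at an unadjusted p under 0.05. Adgrl1 moved from 0.26 to -0.0018 there, the one change of sign among 357 comparisons of single genes. Those comparisons covered only the 12 members with an unadjusted p under 0.05, 4 other adhesion genes and Hltf. Some members outside them did change sign. Clstn1 went from 0.12 to -0.07 after the same correction. Tenm3 went from 0.29 to -0.07 when only numbers 1, 2 and 3 of each group were kept. Over the 6 libraries whose numbers occur in both groups, the replicate block gave 5 members higher at an unadjusted p under 0.05 and a median of 0.0986. The block with the GC content and transcript length correction gave 5 and 0.0643. The share of all genes at that p is not given for the block fits either. The pairing was checked by correlating deviations from the group means over 7548 genes, and r was -0.0825, 0.0536 and -0.165 for numbers 1, 2 and 3. WT 2 and cKO 2 were each other's best match, while WT 1 went best with cKO 3 and WT 3 with cKO 1. With 3 libraries per group that also differ in CA1 and dentate markers, these values cannot show whether equal numbers belong together. The causes of these shifts were not tested. The lowest count in a library was 15 for Cbln2 and at least 118 for every other member.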
